A study of Homo sapiens with 3 samples.

Results

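The response of H2373 mesothelioma cells to Hoechst 33258 (H258) was read from 1 array of cells given 36 µM H258 for 3 h and 1 array of untreated cells. H2373 is a human line derived from malignant pleural mesothelioma, grown in serum-containing medium, and neither array carries another agent. How long the untreated cells were cultured is not given. The remaining array of the series, from cells given 36 µM H342 for 3 h, was used for side-by-side values only. The 2 dyes differ by 1 substituent, an ethoxy group in H342 in place of the phenolic hydroxyl group of H258. Genes were compared across the whole array, and a gene entered the comparison when its detection p, a comparison of the probe with negative control beads, was under 0.05 on at least 1 of the 2 arrays. This held for 10550 of 18851 genes with a probe. At the edge of this limit, 103 genes just inside it, at a detection p of 0.0487, had signals up to 161 under H258 and 157 in untreated cells, and 47 genes just outside it, at 0.0501, had signals up to 160.0 and 155 on the same arrays. With 1 array on each side no error between cultures can be measured and no test was made. Each difference is a size on these 2 arrays, and a gene is called when that size reaches 2-fold. Folds are given after background correction and are therefore larger, for dim genes, than the ratio of the signals printed beside them. Where a probe was not detected on 1 array, the fold is written as at least a size, a bound that holds after the correction only, and for the probe that stands for the gene the log2 difference without the correction is given with it.

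Bisbenzimide dyes such as H258 are crescent-shaped molecules that lie in the minor groove of DNA over short runs of A and T, of which AATT is the classical site. Bound dye can compete with proteins that reach DNA through the minor groove, among them topoisomerases and TATA-binding protein. Mesothelioma cells are transformed cells of the lining of the pleura, and as dividing cells they make the motor proteins, kinetochore proteins and cohesins that carry chromosomes through mitosis. Messenger RNAs of these proteins turn over with the cell cycle, and a treatment of a few hours reads mainly RNAs that are short-lived or newly induced.

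H258 gave far more genes with lower than with higher signal. Of the 10550 genes, 353 were lower by at least 2-fold in H258-treated cells than in untreated cells, 3.35% of those compared, and 81 were higher, 0.768%. The median log2 difference of all genes was 0.06, and the robust SD was 0.42. Genes called lower were of ordinary brightness, with a median signal of 285 under H258 and 538 in untreated cells, beside 520.1 under H258 and 537 in untreated cells over all genes compared. Genes called higher were dim, with a median signal of 255 under H258 and 180 in untreated cells, where the lowest detected signals of the arrays were 160.0 under H258 and 156 in untreated cells. The size of a dim gene's difference depends on the background correction: 84 of the 353 genes called lower and 3 of the 81 called higher kept 2-fold in both the uncorrected signals and the authors' normalized table.

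**Figure D1:**
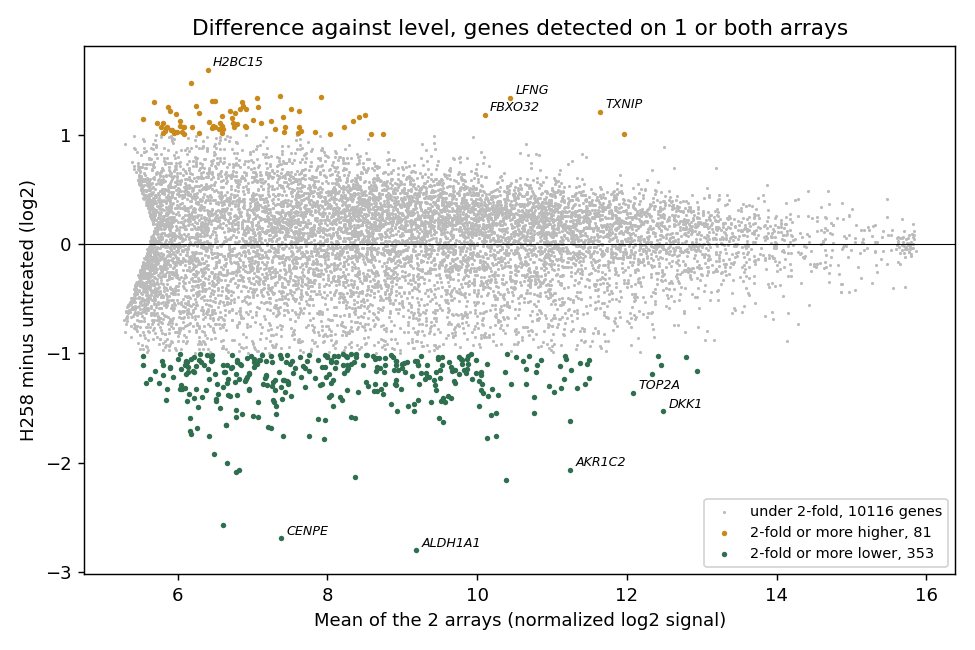
Difference between the H258 and the untreated array (log2, y axis) against the mean of the 2 arrays (normalized log2 signal, x axis), each point 1 gene. The 353 genes lower by at least 2-fold spread over most of the range of levels, while the 81 higher genes crowd at low levels apart from a few such as TXNIP, LFNG and FBXO32.

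The promoters of the genes at the ends of this range are shown because the dye binds runs of A and T. Each is 300 bases long, 250 before and 50 after the first start site listed in RefSeq for the build GRCh38.p14, written 5′ to 3′ on the strand of the gene, with every AATT in capitals. ALDH1A1 and CENPE had the lowest values and H2BC15 the highest. LFNG was added after its values were seen, as the higher gene with the largest difference that did not depend on the background correction. ALDH1A1 lies on the minus strand at chr9:72953004-72953303, CENPE on the minus strand at chr4:103198294-103198593, H2BC15 on the plus strand at chr6:27838319-27838618 and LFNG on the plus strand at chr7:2512279-2512578.
ALDH1A1: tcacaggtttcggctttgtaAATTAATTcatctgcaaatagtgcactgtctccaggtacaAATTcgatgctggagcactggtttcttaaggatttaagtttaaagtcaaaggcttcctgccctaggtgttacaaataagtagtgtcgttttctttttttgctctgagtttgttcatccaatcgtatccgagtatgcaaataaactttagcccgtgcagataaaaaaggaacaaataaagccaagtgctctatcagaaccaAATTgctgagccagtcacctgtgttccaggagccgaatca
CENPE: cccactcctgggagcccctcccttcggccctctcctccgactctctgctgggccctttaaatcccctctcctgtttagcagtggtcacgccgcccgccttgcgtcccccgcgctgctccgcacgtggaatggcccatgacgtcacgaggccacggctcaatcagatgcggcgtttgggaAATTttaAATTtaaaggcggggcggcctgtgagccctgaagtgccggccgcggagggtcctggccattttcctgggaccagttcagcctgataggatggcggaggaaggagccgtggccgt
H2BC15: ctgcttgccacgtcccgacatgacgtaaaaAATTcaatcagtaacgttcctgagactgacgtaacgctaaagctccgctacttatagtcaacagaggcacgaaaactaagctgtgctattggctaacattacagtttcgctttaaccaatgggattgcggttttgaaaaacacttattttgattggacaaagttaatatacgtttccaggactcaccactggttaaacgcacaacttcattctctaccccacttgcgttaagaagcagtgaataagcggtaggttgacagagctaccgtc
LFNG: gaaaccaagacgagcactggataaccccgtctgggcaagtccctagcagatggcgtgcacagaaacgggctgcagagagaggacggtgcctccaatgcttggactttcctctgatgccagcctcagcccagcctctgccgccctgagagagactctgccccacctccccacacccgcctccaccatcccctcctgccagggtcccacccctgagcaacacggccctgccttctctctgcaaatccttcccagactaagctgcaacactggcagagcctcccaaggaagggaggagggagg
These windows held 4, 2, 1 and 0 copies of AATT in the order printed, and 59.7%, 36.3%, 57.0% and 37.7% of their bases were A or T. The ALDH1A1 promoter and the H2BC15 promoter thus had nearly the same share of A and T while their genes stood at opposite ends of the differences.

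Enzymes that clear aldehydes and other carbonyls led the lower genes. ALDH1A1, the retinaldehyde dehydrogenase, had a signal of 327 under H258 and 1671 in untreated cells, a 6.95-fold lower level. Its other detected probe read 271 under H258 and 1036 in untreated cells, so both probes of ALDH1A1 moved together. AKR1B10, an aldo-keto reductase that reduces retinals, read 743 under H258 and 3002 in untreated cells, 4.46-fold lower. AKR1C2, which reduces steroids, had 1297 under H258 and 5158 in untreated cells, 4.18-fold lower. AKR1B15 had 227 and 526 and the dioxin-inducible dehydrogenase ALDH3A1 had 202 and 436 under H258 and in untreated cells, 3.38-fold and 3.36-fold lower. The change did not run through the family. Of 22 aldo-keto reductase and aldehyde dehydrogenase genes compared, these 5 were called lower, 22.7% beside 3.35% over all genes compared. The list held 0 genes called higher, and its median was 0.08. AKR1C3, a close relative of AKR1C2, read 5587 under H258 and 7818 in untreated cells, a log2 difference of -0.52, and AKR1C4 had -0.53. The AKR1C genes, and AKR1B10 with AKR1B15, are near-identical copies, so which member a probe reads is uncertain.

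Among genes that share regulators with these enzymes, GPX2, the glutathione peroxidase of epithelia, was the 1 of 28 NRF2 targets called lower, 3.57% beside 3.35% over all genes compared. The called enzymes named above, AKR1B10 and AKR1C2 among them, were not in this NRF2 list, so its share leaves them out. GPX2 read 159 under H258, where it was not detected, and 349 in untreated cells, at least 4.22-fold lower after the correction, with a log2 difference of -1.08 without it. NFE2L2, which encodes NRF2 itself, had a log2 difference of -0.88. Among 15 targets of the aryl hydrocarbon receptor, ALDH3A1 was the 1 called lower, 6.67% beside 3.35% over all genes compared, and 0 were called higher. CYP1A1, the most characteristic of these targets, had 209 under H258 and 184 in untreated cells. KYNU, an enzyme of tryptophan breakdown, read 266 under H258 and 829 in untreated cells, 4.36-fold lower, and its other probe, undetected under H258, had a bound of at least 3.30-fold lower after the correction. NTS, which encodes the peptide neurotensin, read 137 under H258, below detection, and 358 in untreated cells, at least 4.39-fold lower after the correction, with a log2 difference of -1.34 without it. DKK1, a secreted Wnt inhibitor, read 3612 under H258 and 10027 in untreated cells, 2.89-fold lower. It was the 1 called gene of 35 in the Wnt pathway list, 2.86% beside 3.35% over all genes compared. EVI2A, a transmembrane protein gene that lies within an intron of another gene, read 719 under H258 and 2236 in untreated cells, 3.42-fold lower, and another probe had a log2 difference of -1.16. Its remaining probe was not detected under H258 and was at least 1.12-fold lower after the correction. FOXN2, a forkhead factor, read 533 under H258 and 1457 in untreated cells, 3.08-fold lower.

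Genes of the mitotic machinery were called lower in several lists. CENPE, the kinesin that moves chromosomes to the spindle equator, read 174 under H258 and 553 in untreated cells, 6.45-fold lower. Its other probe read 141 under H258, below detection, and 371 in untreated cells, at least 4.65-fold lower after the correction. Of 24 kinesin genes compared, 7 were called lower, 29.2% beside 3.35% over all genes compared, and 0 higher. The list median was -0.53 beside 0.06 over all genes. It was -0.31 without background correction and -0.32 in the authors' normalized table. KIF18A, which shortens spindle microtubules, read 241 under H258 and 589 in untreated cells, 3.45-fold lower. KIF14 and KIF20B, kinesins of cytokinesis, were 2.75-fold and 2.66-fold lower. KIF11, the motor that pushes spindle poles apart, was 2.18-fold lower with its brighter probe, and its other probe had a log2 difference of -1.31. KIF5B, a motor of vesicle transport in resting and dividing cells alike, read 846 under H258 and 2017 in untreated cells, 2.51-fold lower, so the called kinesins were not all mitotic.

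Of 49 centrosome and centriole genes, 7 were called lower, 14.3% beside 3.35% over all genes compared, and 0 higher, with a median of -0.42. The median was -0.22 over the 41 of them detected on both arrays, and -0.28 over the list without background correction. CEP152, a scaffold of centriole duplication, read 155 under H258, below detection, and 322 in untreated cells, at least 3.75-fold lower after the correction, with a log2 difference of -1.01 without it. Its other probe, also undetected under H258, had a bound of at least 1.22-fold lower. PLK4, the kinase that starts centriole duplication, was 2.35-fold lower, and CEP135, a centriole wall protein, was 3.18-fold lower. Of 49 kinetochore and checkpoint genes, 7 were called lower, also 14.3%, and 0 higher, with a median of -0.25. CENPF, a large protein of the outer kinetochore, read 454 under H258 and 1102 in untreated cells, 2.75-fold lower, and the checkpoint kinase TTK read 642 and 1442 under H258 and in untreated cells, 2.40-fold lower.

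Of 27 cohesin, condensin and related genes, 7 were called lower, 25.9% beside 3.35% over all genes compared, and 0 higher. The median was -0.22, and 9 of the 27 had a difference above 0. Probes of the same gene did not always move together. STAG2, a cohesin subunit, read 523 under H258 and 1399 in untreated cells, 3.01-fold lower, while its other probe read 256 and 263 under H258 and in untreated cells. SMC3, which with SMC1A forms the cohesin ring, was 2.60-fold lower with its brighter probe and had a log2 difference of -0.28 with a dim one. All 3 detected probes of SMC2, a condensin subunit, were lower, by -1.35, -1.07 and -1.02, and so were those of SMC4, by -1.08 and -1.39, with a further probe not detected under H258 and at least 2.28-fold lower after the correction. NIPBL, the cohesin loader, was 2.79-fold lower.

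Of 42 cyclin, CDK and mitotic entry genes, 3 were called lower, 7.14% beside 3.35% over all genes compared, and 0 higher, with a median of -0.02: FBXO5, which holds the anaphase-promoting complex inactive, BORA, an activator of Aurora A, and TOP2A. FBXO5 read 771 under H258 and 2392 in untreated cells, 3.38-fold lower. TOP2A, the topoisomerase that untangles sister chromatids, read 2857 under H258 and 7154 in untreated cells, 2.56-fold lower. CDK1, the kinase that drives entry into mitosis, had a log2 difference of -0.89, and CCNE1, a G1 cyclin, had 0.86. Of 52 replication genes, ORC4, a subunit of the origin recognition complex that was not detected under H258, was the 1 called lower, 1.92%, and the list median was 0.00. Its bound after the correction was at least 1.63-fold, and its log2 difference was -0.52 without it.

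Genes of DNA repair, chromatin remodelling and splicing added further calls. Of 68 genes of DNA damage signalling and repair, 7 were called lower, 10.3% beside 3.35% over all genes compared, and 0 higher, with a median of -0.03. Among the called genes were RIF1, which steers break repair, at 2.63-fold and TOPBP1, an activator of the ATR kinase, at 2.16-fold. MRE11, a nuclease subunit, was 3.02-fold lower by the probe used, but another probe had a log2 difference of -0.40, and a further one, undetected under H258, had a bound of at least 1.04-fold lower. Of 39 chromatin remodellers 6 were called lower, 15.4%, and 0 higher, with a median of -0.08. The calls were led by CHD9, CHD1 and HLTF at 2.43-fold, 2.35-fold and 2.32-fold. Of 77 splicing genes, 8 were called lower, 10.4%, and 0 higher, with a median of -0.19. LUC7L3, a U1-associated factor, read 1146 under H258 and 2676 in untreated cells, 2.43-fold lower. Of 35 golgins and long coiled-coil membrane proteins, 5 were called lower, 14.3%, and 0 higher, with a median of -0.18. KTN1, the kinesin receptor of the endoplasmic reticulum, read 775 under H258 and 1834 in untreated cells, 2.52-fold lower, so the called genes were not all nuclear in function.

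**Figure D2:**
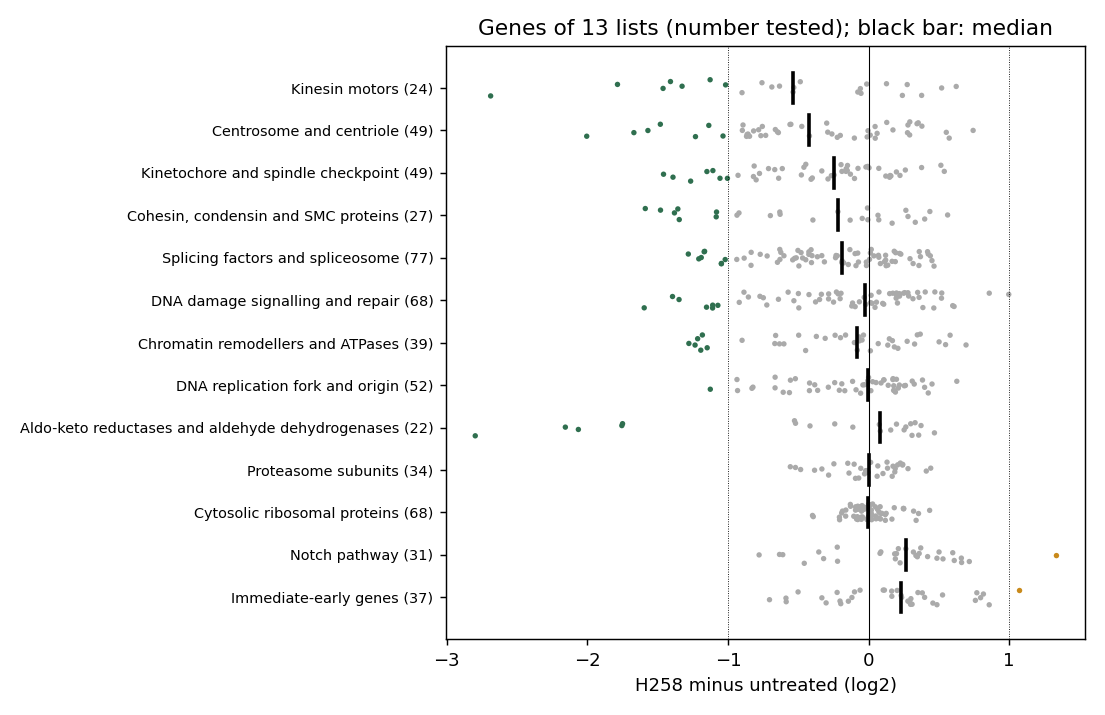
Log2 difference, H258 minus untreated, of every gene compared in 13 lists (x axis), with the number of genes after each list name, the median as a black bar, and dotted lines at 2-fold. Green points are genes called lower and yellow points genes called higher. The kinesin, centrosome, kinetochore and cohesin lists reach far to the left, while the 68 ribosomal protein and 34 proteasome genes stay inside 2-fold.

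Some lists of housekeeping genes held none of the calls, and others, such as the splicing genes above, held some. Called lower were 2 of 57 general transcription factor and Mediator genes, 3.51%, and 3 of 52 heat shock and DNAJ chaperone genes, 5.77%. Of 68 cytosolic ribosomal protein genes, 34 proteasome subunits, 64 nuclear-encoded respiratory chain genes, 24 glycolysis genes and 32 genes of sterol and fatty acid synthesis, 0 were called in either direction. Over all genes compared, 3.35% were called lower and 0.768% higher, so any 1 list of such length would hold few calls or none. The ribosomal protein genes lay between -0.40 and 0.43 and their median was 0.00, a value whose sign changed with the scaling. Of 39 genes of the integrated stress response and 30 pro-apoptotic genes and caspases, 0 were called, where the shares over all genes would give few or none. DDIT3, a stress-induced transcription factor, read 2503 under H258 and 1473 in untreated cells, a log2 difference of 0.82. Of 27 p53 targets, RRM2B, a ribonucleotide reductase subunit, was the 1 called lower, 3.70% beside 3.35% over all genes compared. It was not detected under H258, its bound after the correction was at least 1.26-fold, and its log2 difference was -0.63 without it. Of 21 ABC pumps and organic cation transporters, proteins of the kind that move Hoechst dyes across membranes, 0 were called. At the shares over all genes, so short a list would hold few calls or none.

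The 3 higher genes that kept 2-fold both without background correction and in the deposited table were bright. LFNG, a glycosyltransferase that modifies Notch receptors, read 2371 under H258 and 1023 in untreated cells, 2.53-fold higher. Its other detected probe, near the detection limit, read 162 under H258 and 167 in untreated cells. TXNIP, a glucose-induced inhibitor of thioredoxin and of glucose uptake, read 5149 under H258 and 2267 in untreated cells, 2.31-fold higher. FBXO32, a ubiquitin ligase of muscle wasting and a FOXO target, read 1790 under H258 and 870 in untreated cells, 2.27-fold higher, with a log2 difference of 0.84 at its other probe. Over all genes compared, 0.768% were called higher and 3.35% lower, so lists as short as those below would hold few calls or none. Of 32 FOXO and glucose-response genes, TXNIP and FBXO32 were the 2 called higher and 0 were called lower, with a median of 0.21. ARRDC4, a relative of TXNIP that answers to glucose in the same way, had a log2 difference of 0.77, and KLF6 had -0.70. Of 31 Notch pathway genes, LFNG was the 1 called higher and 0 were called lower. The related fringe MFNG had 0.72, HES1, a target of the pathway, had 0.66, and RBPJ, its DNA-binding factor, had -0.78.

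The other higher genes chosen by the rule were dim. H2BC15, a histone H2B gene, read 255 under H258 and 155 in untreated cells, where it was not detected, at least 2.99-fold higher after the correction, with a log2 difference of 0.75 without it. It was the 1 called among 42 histone genes compared, where 0.768% of all genes compared were called higher. PTPN6, a phosphatase of blood and epithelial cells, read 229 under H258 and 146 in untreated cells, below detection, at least 2.46-fold higher after the correction, with a log2 difference of 0.68 without it. HOXB6, a homeobox gene, read 246 under H258 and 166 in untreated cells, but its other probe read 163 and 194 under H258 and in untreated cells. MMP3, the matrix metalloproteinase stromelysin, read 494 under H258 and 269 in untreated cells, 2.54-fold higher. In the same list of 55 matrix and adhesion genes, MMP14 was also called higher. It was not detected in untreated cells, and it was at least 1.86-fold higher after the correction, with a log2 difference of 0.46 without it. COL5A2, a fibrillar collagen chain, and POSTN, the matrix protein periostin, were called lower at 4.19-fold and 2.52-fold, so the called matrix genes went both ways. The share of that list called lower was 3.64%, beside 3.35% over all genes compared. ARMC7, ATP13A2, TBC1D10A and PARP10 were between 2.45-fold and 2.56-fold higher at signals from 251 to 370 under H258 and from 168 to 219 in untreated cells. CYRIA, not detected in untreated cells, was at least 1.65-fold higher after the correction, with a log2 difference of 0.68 without it.

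With 0.768% of all genes compared called higher and 3.35% lower, lists of the lengths below would hold few calls or none. Of 37 immediate-early genes, IER2 was the 1 called, at 2.11-fold higher, and the list median was 0.23, with 24 genes above 0 and 13 below. The lowest of them, KLF6, had a log2 difference of -0.70. DUSP1, a MAP kinase phosphatase, read 3954 under H258 and 2287 in untreated cells, a log2 difference of 0.80, and the zinc finger factor KLF4 had 0.82. Of 36 helix-loop-helix, LIM-homeobox and SOX factors, 2 were called higher and 0 lower, with a median of 0.26. MSC, the helix-loop-helix factor musculin, read 5936 under H258 and 2993 in untreated cells, 2.01-fold higher and the brightest of the called genes in that list. ID1, which blocks helix-loop-helix factors, read 8355 under H258 and 4454 in untreated cells, a log2 difference of 0.89. IL6, an inflammatory cytokine, had 0.69.

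The place of a gene in the genome went with its difference. For each of 10540 genes compared, the other protein-coding genes within 500 kb on either side were counted in RefSeq, a count examined after the first values had been seen, and the genes were cut into 5 classes of about equal size. In the class with the fewest neighbours, 0 to 5, the median log2 difference was -0.19, and 152 of 2171 genes were called lower, 7.0%. The median was -0.10 with 6 to 9 neighbours, 0.07 with 10 to 15 and 0.19 with 16 to 26. In the class with the most neighbours, 27 to 75, the median was 0.26, and 8 of 2083 genes were called lower, 0.384%. Calls in the other direction took the opposite course, from 0.415% of genes with the fewest neighbours to 1.30% of those with the most. Genes in crowded regions thus had slightly higher signal under H258 and genes in sparse regions lower signal. Across the 10540 genes, which share the 2 arrays and are not independent, Spearman's rho between the count and the difference was 0.39.

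Level and detection shifted a little over the same classes. Genes with the fewest neighbours had a median normalized level of 8.33 on the log2 scale and 8.94% were detected in untreated cells alone, against 8.74 and 6.10% for those with the most. When the genes were first cut into 3 classes of mean level, the medians still ran from -0.18 to 0.23 in the brightest class, from -0.22 to 0.34 in the middle class and from -0.19 to 0.22 in the dimmest. In the middle class, 67 of 766 genes with the fewest neighbours were called lower and 0 of 674 with the most. The probes' own base composition was not analysed here.

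Long genes were lower as well. In the class of genes with the shortest span on the chromosome, again of 5, up to 8847 bases, the median difference was 0.18 and 0.901% were called lower. In the class with the longest span, 87136 bases or more, the median was -0.10 and 5.98% were called lower. Long genes lie in sparse regions, with a median of 6 neighbours in the longest class and 22 in the shortest. When both were held, the count of neighbours kept its gradient: among the shortest genes the median was -0.04 with the fewest neighbours and 0.27 with the most, and among the longest it was -0.19 over 975 genes with the fewest and 0.27 over 51 genes with the most. Among genes with the most neighbours the medians of the 5 span classes lay between 0.24 and 0.27, and span made little difference there. Among genes with the fewest, span did go with the difference. From the shortest class to the longest the medians there were -0.04, -0.13, -0.25, -0.29 and -0.19. The shares called lower were 2.35%, 4.92%, 9.32%, 7.48% and 7.59%.

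**Figure D3:**
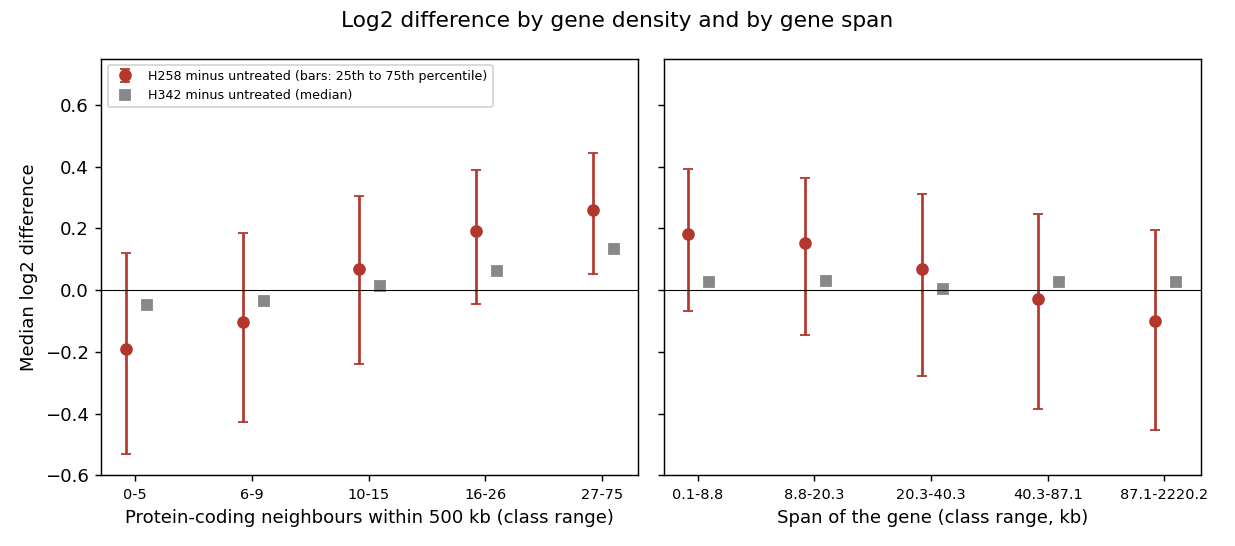
Median log2 difference (y axis) in 5 classes of the count of protein-coding neighbours (left) and of gene span in kb (right), for H258 minus untreated with bars from the 25th to the 75th percentile of genes, and for H342 minus untreated as squares. For H258 the median climbs from -0.19 to 0.26 with the count of neighbours and runs down from 0.18 to -0.10 with span.

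The same 10540 genes gave a shallower course under H342. Its medians were -0.05, -0.04, 0.01, 0.06 and 0.13 in the 5 classes of neighbours, and between 0.00 and 0.03 in all 5 classes of span. Spearman's rho with the count of neighbours was 0.39 under H258 and 0.17 under H342, and with span it was -0.24 under H258 and -0.01 under H342. The 2 comparisons share the untreated array, doses and times were equal, and whether the compounds differ in this respect was not tested, as there was 1 array for each.

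Neighbouring genes also resembled each other in the size of the difference. For 8696 genes with at least 3 compared genes within 500 kb, the median difference of those neighbours was taken. Where it fell in the lowest of 5 classes, the gene itself had a median of -0.20 and 6.78% were called lower, and where it fell in the highest the gene had 0.25 and 0.633%. Spearman's rho across genes was 0.38. Genes that lie together share much of their count of neighbours, so this value is not separate from the pattern by count. The part of gene density in it was not tested.

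Whole chromosomes showed the pattern. Chromosome 13, a gene-poor chromosome, had the lowest median difference, -0.24 over 194 genes, and 15 of them were called lower and 0 higher. Chromosomes 4 and 18 followed at -0.13 each and chromosome 5 at -0.11. At the other end were chromosomes 22 and 19 at 0.23 each and chromosome 16 at 0.21, where 3 of 499 genes were called lower. The differences did not follow the chromosome alone: on all 15 chromosomes with at least 20 genes in both end classes of neighbours, the genes with the fewest had a lower median than those with the most. On chromosome 11 these medians were -0.26 over 79 genes and 0.30 over 202 genes.

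**Figure D4:**
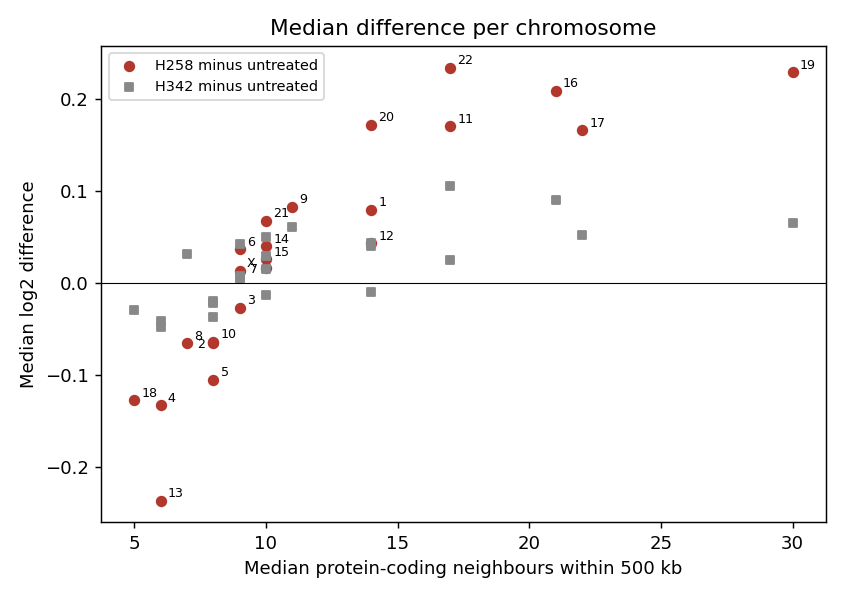
Median log2 difference per chromosome (y axis) against the median count of protein-coding neighbours within 500 kb of its genes (x axis), for H258 minus untreated (circles, labelled) and H342 minus untreated (squares), over 22 autosomes and X. Chromosome 13 lies lowest at -0.24 and chromosomes 19 and 22 highest at 0.23.

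The gene lists differ in these properties. The kinesin genes compared had a median span of 77319 bases and 8 neighbours, the cohesin and condensin genes 43779 bases and 6 neighbours, and the ribosomal protein genes 5025 bases and 16.5 neighbours, against 28559 bases and 11 neighbours over all genes. The genes called lower had medians of 62543 bases and 6 neighbours, and those called higher 11283 bases and 20 neighbours. The part of gene density in the differences of any list was not tested. TOP2A, with 29 neighbours within 500 kb, was lower in a crowded region, and TEAD1, a Hippo pathway factor with 2, was called higher in a sparse one. With no detection in untreated cells, TEAD1 had a bound of at least 1.62-fold higher after the correction, with a log2 difference of 0.48 without it.

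Promoter base composition moved less. The 300 bases around the start were found for 8707 of the genes compared. In the class with the least A and T, of 5, the median difference was 0.16, and in the class with the most it was -0.05, with 1.97% and 5.24% called lower. Among genes with the most neighbours the medians of these end classes were 0.32 and 0.15. Among genes with the fewest neighbours they were -0.14 and -0.21. Genes called lower had a median of 38.0% A and T in the promoter and genes called higher 34.7%, against 35% over all genes compared. AATT, searched as these letters and the same on both strands, was present in 44.0% of promoters of genes called lower, 36.4% of genes called higher and 33.1% of all genes compared, and in 46.5% of all promoters of this length in the table. A match describes the letters of the window and is no evidence of bound dye.

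Probes that read the same gene at another place gave a further reading of the called genes. They come from the same RNA samples and are not replicates. Of 2689 genes with at least 2 detected probes, 112 were called lower with the brightest, and the next probe was lower too in 110 of them, with 38 at 2-fold or more and a median of -0.86 against -1.19. Of 13 called higher, the next probe was higher in 10 and reached 2-fold in 0, with a median of 0.35 against 1.11. Among the 2564 genes not called, 72.9% had the same sign in both. The difference between a gene's probes had a robust SD of 0.34 over all 2689 genes, where a 2-fold difference is 1 on the same scale.

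The cells carried markers of their labelled type on both arrays. Of 12 mesothelial and keratin markers with a probe, 8 were detected on at least 1 of the 2 arrays. KRT19 was detected in untreated cells only, at 157 under H258 and 210 in untreated cells. The summed signal of the 12 was 70901 under H258 and 68712 in untreated cells. Most of this sum came from VIM alone, at 56115 under H258 and 55460 in untreated cells. MSLN, which encodes mesothelin, read 2063 under H258 and 1533 in untreated cells. WT1 and CALB2 were detected on both arrays but dim, at 393 and 270 under H258 and 372 and 282 in untreated cells. UPK3B, LRRN4, PDPN and KRT5 were not detected on either. None of 7 lung epithelial markers was detected, nor was the leukocyte marker PTPRC. Of 3 endothelial markers PECAM1 was detected on both arrays, at 229 under H258 and 243 in untreated cells. Of 3 fibroblast markers PDGFRA was detected on both, at 341 under H258 and 276 in untreated cells. Of 5 leukocyte markers, CD68 and CD14 were detected on both arrays and LYZ under H258 only. The summed signal of that list was 4445 under H258 and 3363 in untreated cells.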

How the data were processed

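Biotinylated cRNA of H2373 cells was hybridized to Illumina BeadChips, with 1 array for each condition. The deposited signal intensities are bead averages made by the authors with BeadStudio 3.1.3.0, neither background-subtracted nor normalized. The deposited detection p-values compare each probe with its array's negative controls. Intensities in another deposited table were normalized by the authors, the method being not given in the sources used here, and served as an alternative.

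Background was corrected over the 3 arrays with limma 3.58.1 (R 4.3.3), by the normal-exponential model with controls inferred from the detection p with 16 added as an offset, then quantile normalized and put on the log2 scale. A gene was represented by its brightest probe. Of 48798 probes, 28093 had 1 gene symbol, 13 had several and 20692 had none and were left out; 18825 of 18851 genes matched RefSeq (GRCh38.p14). A side below detection was set to the higher of its own value and the array's lowest detected signal, and such folds, bounds under this correction only, are written as at least that size. Sizes near this limit rest on the correction, and having 1 array a side limits precision. Spans, neighbours and promoters came from RefSeq, with the first promoter listed per gene. Summaries used Python 3.11.15, numpy 2.4.6, pandas 2.3.3 and matplotlib 3.10.9, and the steps were tested on simulated data.

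Groups came from the sample labels. The genes named were the 15 lowest called genes that kept 2-fold without background correction and in the deposited table, the 3 highest that did so and the next 9 that kept 1.5-fold in both, and of 47 gene lists the 4 members with the largest differences and the called members. Other list members are named where their values were seen first: AKR1C3, AKR1C4, CYP1A1, CDK1, CCNE1, ARRDC4, KLF6 and HES1. Lists, rule and comparisons were chosen with earlier results of these data known. Some genes are not reported here. The file names an earlier version of the BeadChip than the methods do, and its annotation was used.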

Additional observations from a re-analysis of the deposited data

Results flagged for a closer look

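Probes that the array annotation pairs with no gene symbol took no part in the report. Of 2945 such probes detected on the H258 or the untreated array, 55 were lower by at least 2-fold under H258 than in untreated cells, 1.87%, and 18 were higher, 0.611%, with a median log2 difference of 0.00.

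With 1 array for each condition, 3 genes reached 2-fold in opposite directions under the dyes, and the difference was not tested. The ubiquitin ligase gene FBXO32 had a log2 difference of 1.18 under H258 and -1.06 under H342, each against untreated cells. The homeobox gene ISL1 had 1.21 under H258. It was not detected under H342, where it was at least 2.42-fold lower than in untreated cells after background correction. C1orf74 had 1.02 under H258 and was not detected under H342, where it was at least 2.27-fold lower after the correction. Without the correction the log2 differences under H258 and H342 were 1.07 and -0.87 for FBXO32, 0.78 and -0.60 for ISL1 and 0.62 and -0.79 for C1orf74, so none of the 3 passed 2-fold in both directions without it. Both sets of values share the untreated array.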

How the results depend on the processing

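No paired analysis was possible because each condition had 1 array, and no replicate could be left out. Counts of genes at 2-fold or more depended on the processing. Against 81 higher and 353 lower, an offset of 50 gave 12 and 209, no background correction 3 and 109, and the deposited normalized values 3 higher and 85 lower. Median scaling gave 47 higher, as against 49 with no normalization between arrays, and in these the lower counts, 433 and 429, stayed within 1.5 times. A detection p under 0.01 gave 49 higher. At 1.5-fold 762 genes were higher and 1223 lower, and at 3-fold 1 and 30. The other alternatives, cyclic loess, 2 arrays normalized together, the remaining detection filters, the bound, the mean of probes and probes in place of genes, kept both counts within 1.5 times.

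The differences between end classes kept their direction under each alternative run: from 0.32 to 0.47 for neighbours, -0.32 to -0.21 for span and -0.22 to -0.16 for promoter composition. The classes by neighbours and their alternatives were added after the data were seen. For the 27 genes named by rule, 0 of 189 values changed sign and 23 fell short of 2-fold, all among the higher genes. Of 564 list medians under alternatives, 38 moved by more than 0.1. The classes of coding length were not run, since no protein table was used here.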
